A study of Mus musculus with 6 samples.

Results

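The genes described here encode the transforming growth factor beta (TGF-beta) ligands (Tgfb1, Tgfb2 and Tgfb3), their receptors (Tgfbr1, Tgfbr2 and Tgfbr3) and the latent TGF-beta binding proteins (Ltbp1, Ltbp2, Ltbp3 and Ltbp4). They were taken by name, not by a measured value, but with earlier results of these data known. Of the 10, 9 were measured among the 18810 genes of the table. Tgfb1 was not analysed here. RNA came from atrioventricular canal regions of mouse embryos at embryonic day 15.5, from 3 Scx-/- and 3 Scx+/+ hearts with 1 library each. Both genotypes were C57BL/6 littermates, and Scx-/- embryos lack Scleraxis, a basic helix-loop-helix transcription factor. By the methods the dissected regions held the mitral, tricuspid and aortic valves, and no sorting of cells is described. Values are RPKM, reads scaled to exon length and to the mapped reads of a library, so levels can be set side by side between genes of different length.

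TGF-beta is secreted in a latent form, folded with its own propeptide and tied by a disulfide bond to a latent TGF-beta binding protein, which anchors it to fibrillin and fibronectin in the matrix. Once released, the ligand binds the type II receptor kinase Tgfbr2, which recruits and activates the type I kinase Tgfbr1, and Tgfbr1 then phosphorylates Smad2 and Smad3. Tgfbr3, or betaglycan, is a co-receptor that presents ligand, above all TGF-beta 2, to the kinases. In the atrioventricular canal this pathway is known for its part in the transformation of endocardium into cushion mesenchyme, and it can raise the expression of Scx in valve cells.

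Promoters of the most abundant measured member of each role are shown because Scleraxis binds E-boxes, the motif CANNTG. The windows run from 250 bases before to 50 bases after the annotated start of transcription in RefSeq on build GRCm38.p6, which held 7 of the 9 measured genes. Where a gene had more than 1 start, the most upstream was used. The windows lie at chr1:186705940-186706239 on the minus strand (Tgfb2), chr4:47352972-47353271 on the plus strand (Tgfbr1) and chr17:75005279-75005578 on the plus strand (Ltbp1). Capitals mark every CANNTG, which reads the same on both strands.
Tgfb2: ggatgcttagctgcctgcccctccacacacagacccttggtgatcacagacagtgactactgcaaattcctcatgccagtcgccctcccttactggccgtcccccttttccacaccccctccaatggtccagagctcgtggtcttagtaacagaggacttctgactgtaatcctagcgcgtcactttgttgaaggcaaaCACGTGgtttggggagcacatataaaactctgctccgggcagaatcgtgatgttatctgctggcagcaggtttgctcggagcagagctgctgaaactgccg
Tgfbr1: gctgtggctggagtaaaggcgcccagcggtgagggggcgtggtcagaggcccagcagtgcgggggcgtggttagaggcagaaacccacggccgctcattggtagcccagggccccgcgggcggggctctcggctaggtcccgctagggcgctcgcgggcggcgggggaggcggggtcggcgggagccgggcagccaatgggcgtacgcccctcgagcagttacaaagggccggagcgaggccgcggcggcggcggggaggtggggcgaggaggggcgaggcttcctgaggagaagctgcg
Ltbp1: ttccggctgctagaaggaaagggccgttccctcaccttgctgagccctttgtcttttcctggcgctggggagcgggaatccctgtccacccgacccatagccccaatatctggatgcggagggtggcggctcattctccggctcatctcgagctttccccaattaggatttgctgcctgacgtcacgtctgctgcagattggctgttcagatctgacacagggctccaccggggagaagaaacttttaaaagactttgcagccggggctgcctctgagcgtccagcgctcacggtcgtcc

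The Tgfb2 window held 1 E-box, CACGTG, whose first base lies 51 bases before the start. The windows of Tgfbr1 and Ltbp1 held none, while those of their later annotated starts held CATTTG (Tgfbr1) and CATCTG with CAAATG (Ltbp1). Of the 7 genes, 5 had at least 1 E-box in the most upstream window, namely Tgfb2, Ltbp2 with CAGGTG and CATCTG, Ltbp3 with CAAATG, Ltbp4 with CACCTG and Tgfbr2 with CAGCTG. An E-box occurs in 72.3% of all 32851 promoter windows of that table, so its presence in these genes is a description of the sequence.

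Before the results, the libraries need a description. Depth was 46429986 to 68571047 reads per library, solved from the RPKM and the exon lengths, and the 9 genes rested on 91 to 8451 reads per library. Whole-gene Scx was 18.6 to 82.9 RPKM in Scx-/- and 25.97 to 58.3 RPKM in Scx+/+. A whole-gene value cannot show the loss of 1 exon, so these overlapping values are no check of the genotype labels, and each library is named by its label. Scx-/- replicate 3 and Scx+/+ replicate 2 stood apart from the rest in cardiomyocyte markers. Cardiomyocyte markers (10 genes) summed to 26796 and 29258 RPKM in them and to 16429 to 22176 RPKM in the other 4 libraries. Their Spearman correlation with each other was 0.947. With the other 4 it ran from 0.924 to 0.933 for Scx+/+ replicate 2 and from 0.940 to 0.952 for Scx-/- replicate 3. Among the other 4 it ran from 0.944 to 0.957, so by this measure only Scx+/+ replicate 2 lay wholly below the rest.

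All 10 cardiomyocyte markers were measured and Myl2 alone reached 5910 to 11634 RPKM, although the methods describe a dissection that took little myocardium along. Valve mesenchyme markers were present too, with all 10 measured and Postn at 161 to 387 RPKM. The 8 endothelium markers summed to 128 to 154 RPKM and the 8 erythroid markers to 7811 to 14265 RPKM. Smooth muscle (6 of 6 measured), macrophage (7 of 8) and Schwann cell markers (2 of 5) summed to 447 to 672, 7.55 to 12.4 and 1.27 to 2.24 RPKM. Of all marker genes, limma called Ryr2 as lower in Scx-/- and Cd68, Tcf21 and Upk1b as higher. These were 1 of 10 cardiomyocyte, 1 of 7 macrophage and 2 of 7 epicardium markers. The calls were at an unadjusted limma p below 0.05, which 3.89% of all genes passed, and each adjusted p was 0.967. Cd68 in Scx+/+ replicate 2 was 0.0949 RPKM, the value that replaced low values, so its fold change depends on that replacement. In such mixed tissue, fewer cells of a type and less RNA per cell cannot be told apart.

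Tgfbr1 had the highest level of the 9 genes, with 16.4 ± 2.98 RPKM (SD, n = 6) over all libraries. It was followed by Tgfb2 (8.41 ± 1.34), Ltbp1 (7.50 ± 2.26), Tgfbr2 (4.50 ± 0.752), Tgfb3 (4.36 ± 0.828), Tgfbr3 (4.29 ± 1.19), Ltbp3 (1.61 ± 0.411), Ltbp4 (1.07 ± 0.348) and Ltbp2 (0.454 ± 0.221), each in RPKM (SD, n = 6). Of all genes of the table, 80.1% had a lower mean than Tgfbr1 and 13.3% a lower mean than Ltbp2. For 5 of the 8 neighbouring pairs in this order, the higher gene was higher in 6 of 6 libraries (exact sign-flip permutation test of the log2 ratio over libraries, two-sided, p = 0.0312, the smallest 6 libraries allow, adjusted p = 0.05 over 8 pairs). Tgfb2 was above Ltbp1 in 5 of 6 libraries (exact sign-flip permutation test, p = 0.156), and Tgfbr2, Tgfb3 and Tgfbr3 could not be put in order. Tgfbr2 was above Tgfb3 in 2 of 6 libraries and Tgfb3 above Tgfbr3 in 3 of 6. The pairs and their direction were set by the means over these same libraries. The tests therefore describe how steady each difference was and are no independent evidence for the order.

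**Figure D1:**
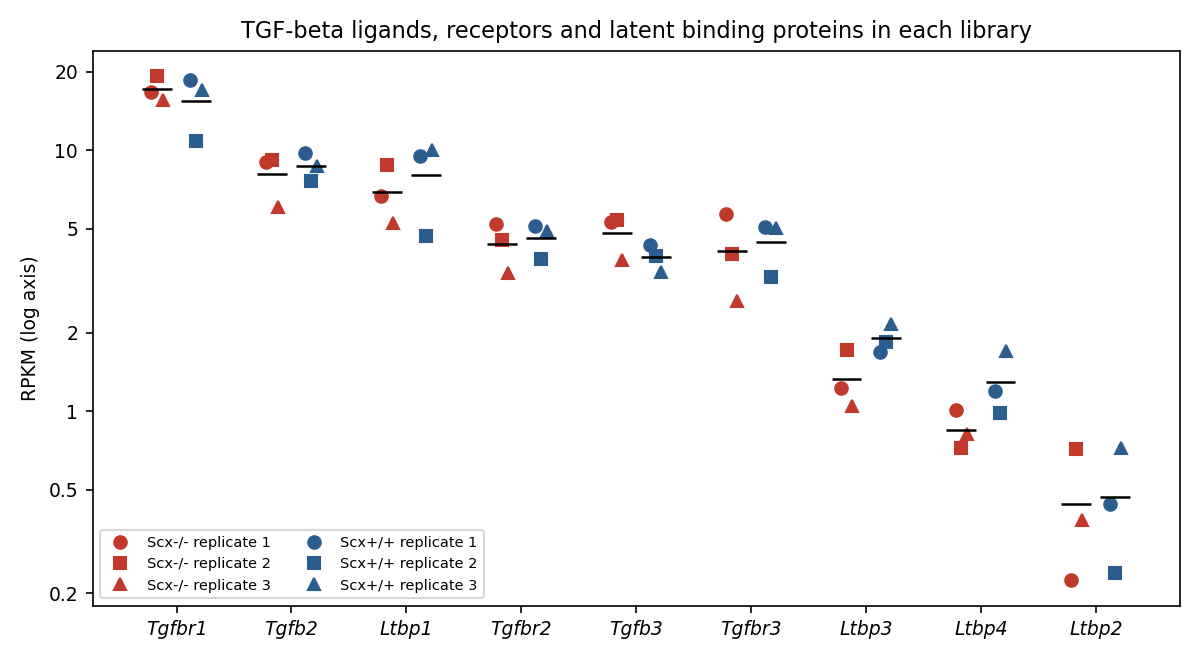
Level of each gene in each library, in RPKM on a log axis, with Scx-/- in red, Scx+/+ in blue, replicates by marker shape and the mean of each genotype (n = 3) as a bar. The genes are ordered by their mean over 6 libraries, from Tgfbr1 at 16.4 RPKM to Ltbp2 at 0.454 RPKM, and for every gene the points of the genotypes overlap.

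The comparison of genotypes asked whether transcripts of the pathway's ligands, receptors and binding proteins differed in the absence of Scx. With a threshold of 0.05 on the unadjusted p of limma, 0 of the 9 genes and 3.89% of all 18810 genes were called (2.82% as higher and 1.06% as lower in Scx-/-). After adjustment limma called 0 of the 18810 genes, against 731 before it, and a test in which each gene keeps its own variance called 1 and 865 (4.6%). The 3 libraries of a genotype lay apart from the other 3 for none of the 9 genes, and for 9.5% of all genes. All log2 fold changes are Scx-/- minus Scx+/+ on log2(RPKM + 0.1), and gene positions are those of mm9. Their median over all genes was 0.10, and with the median of each library set to 0 it was -0.0045, so several fold changes are also given on that centred scale. Centring also moved the split of calls over all genes, from 531 of 731 higher in Scx-/- to 281 of 646. All 9 genes kept their direction after centring.

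Among the ligands, Tgfb2 is the one most associated with cushion development (ENSMUSG00000039239, mm9 chromosome 1, bases 188447065 to 188529871, minus strand). It was 9.02, 9.22 and 6.09 RPKM in Scx-/- replicates 1 to 3 and 9.75, 7.64 and 8.73 RPKM in Scx+/+ replicates 1 to 3. The 2 lowest values were those of Scx-/- replicate 3 and Scx+/+ replicate 2, and the genotypes overlapped. In limma the difference was -0.12 ± 0.22 (log2, SE; adjusted p = 0.980), or -0.23 after centring. The 95% interval from limma ran from a fold of 0.649 to 1.31. Without Scx-/- replicate 3 the sign changed and the log2 fold change was 0.072.

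Tgfb3 (ENSMUSG00000021253, chromosome 12 from 87397694 to 87419991, minus strand) encodes the ligand best known from palate fusion, which is also expressed in cushion mesenchyme. It was 5.31, 5.42 and 3.80 RPKM in Scx-/- and 4.33, 3.92 and 3.41 RPKM in Scx+/+ replicates 1 to 3. Scx-/- replicates 1 and 2 were above every Scx+/+ library, and Scx-/- replicate 3 fell among them. The difference came to 0.30 ± 0.24 (log2, SE; limma adjusted p = 0.967), or 0.19 after centring, with a 95% interval from a fold of 0.849 to 1.78. It was above 0 in all 18 alternative analyses, from 0.19 to 0.47, and past the unadjusted threshold in none of them. Those that alter only the variance, the set of genes or the pairing by number return the main estimate and cannot change its sign.

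The share of Tgfb2 in the summed RPKM of Tgfb2 and Tgfb3 does not depend on the scaling of a library. For Scx-/- replicates 1 to 3 the share was 62.9%, 63.0% and 61.6%, and for Scx+/+ replicates 1 to 3 it was 69.2%, 66.1% and 71.9%. The highest Scx-/- share lay below the lowest Scx+/+ share, with means of 62.5% ± 0.801 (SD, n = 3) and 69.1% ± 2.93 (SD, n = 3). The difference was -6.58 percentage points (exact permutation test, two-sided, p = 0.1, the smallest that 3 against 3 allow, and adjusted p = 0.533 over the 8 shares compared), and groups that do not overlap were also found for 9.5% of single genes. It stayed between -8.33 and -5.16 points in the 11 alternatives. These left out libraries singly or in pairs, paired them by number, used reads in place of RPKM or removed a trend with length and GC. Because the shares did not overlap, leaving libraries out could not change the sign. Pairing by number returns the same difference, so these alternatives are no separate evidence for its direction. The libraries that stood apart in cardiomyocyte markers had the lowest share of their own genotype, 61.6% in Scx-/- replicate 3 and 66.1% in Scx+/+ replicate 2, and without both the difference was -7.62 points. The part of myocardium in the share was not tested. Tgfb1, which was not analysed here, has no part in this share.

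Epicardium markers are given beside this share. All 7 were measured and had a log2 fold change above 0, as did 63.8% of all genes, and their summed level was 31.9 to 42.0 RPKM in Scx-/- and 24.9 to 30.7 RPKM in Scx+/+. Tcf21, a transcription factor of epicardial derivatives and fibroblast progenitors, rose from 6.34 ± 1.16 to 9.39 ± 0.891 RPKM (SD, n = 3), and Upk1b, a uroplakin of mesothelium, from 3.13 ± 0.535 to 4.84 ± 0.906 RPKM (SD, n = 3). These 2 of the 7 passed the unadjusted threshold, which 2.82% of all genes passed as higher in Scx-/-, and both had a limma adjusted p of 0.967. Within each genotype the library with the lowest sum, Scx-/- replicate 3 or Scx+/+ replicate 2, also had the lowest Tgfb2 share. These are also the libraries that stood apart in cardiomyocyte markers. Between genotypes the relation was reversed, with the higher sums and the lower shares in Scx-/-. The part of these cells in the ligand share was not tested.

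**Figure D2:**
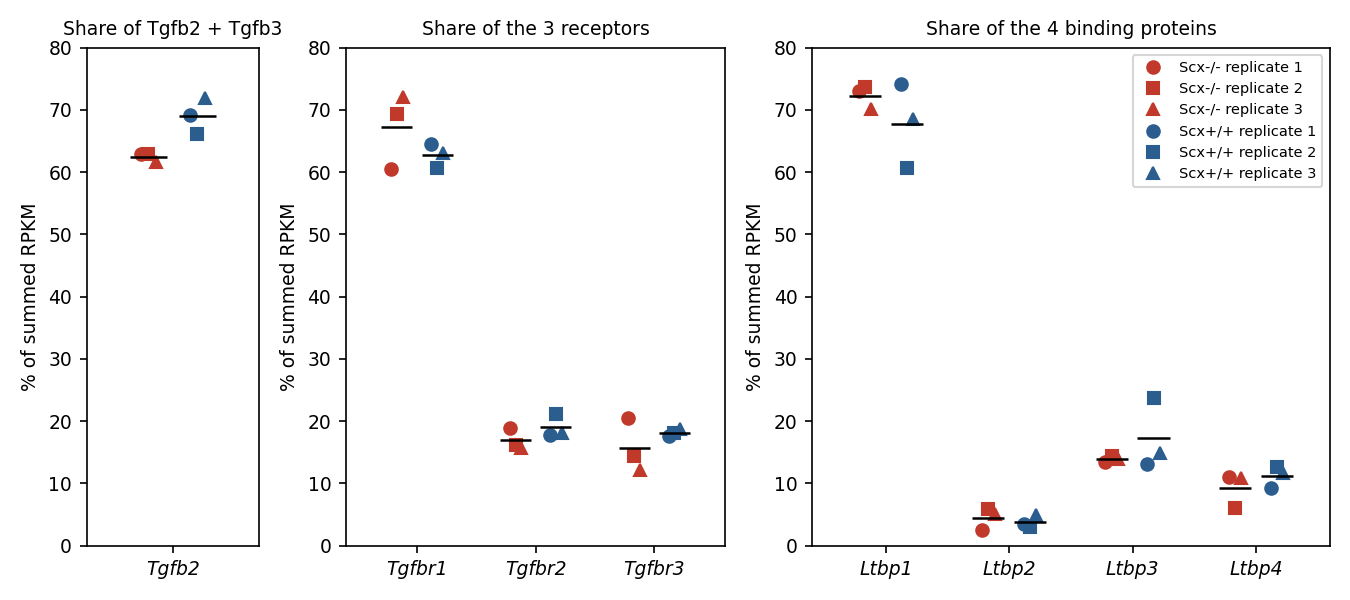
Share of each gene in the summed RPKM of its role in each library, in percent, with Scx-/- in red, Scx+/+ in blue, replicates by marker shape and the mean of each genotype (n = 3) as a bar. The Tgfb2 share is 61.6% to 63.0% in Scx-/- and 66.1% to 71.9% in Scx+/+ with no overlap, while the genotypes overlap for each receptor and each binding protein.

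Of the receptors, Tgfbr1 (ENSMUSG00000007613, chromosome 4 from 47366094 to 47427803, plus strand), the type I kinase, was 16.7, 19.3 and 15.6 RPKM in Scx-/- and 18.6, 10.9 and 17.04 RPKM in Scx+/+ replicates 1 to 3. Scx+/+ replicate 2 was well under the other 5 libraries. Its difference was 0.18 ± 0.23 (log2, SE; limma adjusted p = 0.967) and 0.070 after centring, with a 95% interval from a fold of 0.793 to 1.62. Without Scx+/+ replicate 2 it was -0.053, so this library sets the direction.

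Tgfbr2 (ENSMUSG00000032440, chromosome 9 from 115993415 to 116084383, minus strand), the kinase that binds ligand first, was 5.24, 4.52 and 3.38 RPKM in Scx-/- and 5.13, 3.82 and 4.91 RPKM in Scx+/+ replicates 1 to 3. The genotypes overlapped over most of their range. In limma they differed by -0.085 ± 0.25 (log2, SE; limma adjusted p = 0.987), and the 95% interval ran from a fold of 0.639 to 1.39. The sign changed without Scx-/- replicate 3 (0.085) and once a trend with length and GC was removed (0.0053).

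Tgfbr3 (ENSMUSG00000029287, chromosome 5 from 107535589 to 107718648, minus strand), the co-receptor betaglycan, was 5.68, 4.01 and 2.63 RPKM in Scx-/- and 5.09, 3.26 and 5.05 RPKM in Scx+/+ replicates 1 to 3. Both the highest and the lowest value belonged to Scx-/-. The estimate was -0.16 ± 0.32 (log2, SE; limma adjusted p = 0.980), -0.27 after centring and 0.12 without Scx-/- replicate 3.

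Tgfbr1 made up most of the receptor RPKM in every library, with 67.3% ± 6.10 (SD, n = 3) in Scx-/- and 62.8% ± 1.94 (SD, n = 3) in Scx+/+ (exact permutation test, two-sided, p = 0.4). Tgfbr2 held 16.96% ± 1.77 and 19.1% ± 1.86 (SD, n = 3 each), and Tgfbr3 15.7% ± 4.34 and 18.2% ± 0.518 (SD, n = 3 each). The genotypes overlapped for each of the 3 shares.

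Among the latent binding proteins, Ltbp1, which anchors latent TGF-beta to fibronectin and fibrillin, was the most abundant (ENSMUSG00000001870, chromosome 17 from 75404908 to 75791852, plus strand). It was 6.66, 8.81 and 5.27 RPKM in Scx-/- and 9.51, 4.72 and 10.01 RPKM in Scx+/+ replicates 1 to 3. The lowest and the highest value were both in Scx+/+, and the genotypes overlapped. By limma they differed by -0.18 ± 0.32 (log2, SE; adjusted p = 0.979). The estimate was 0.00016 without Scx-/- replicate 3, 0.013 without Scx+/+ replicate 3 and -0.52 without Scx+/+ replicate 2. With both libraries numbered 2 left out, it was -0.71 and past the unadjusted threshold, the only such call for the 9 genes in any analysis, where 9.06% of all genes were called and the adjusted p was 0.532 from limma.

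Ltbp3 (ENSMUSG00000024940, chromosome 19 from 5740904 to 5758532, plus strand) binds latent TGF-beta as it leaves the cell. It was 1.23, 1.71 and 1.04 RPKM in Scx-/- and 1.69, 1.84 and 2.16 RPKM in Scx+/+ replicates 1 to 3. The genotypes overlapped only in that Scx-/- replicate 2 (1.71 RPKM) exceeded Scx+/+ replicate 1 (1.69 RPKM). The mean in Scx-/- was 69.9% of that in Scx+/+, or -0.51 ± 0.31 on the log2 scale (SE; limma adjusted p = 0.967) and -0.62 after centring. The 95% interval ran from a fold of 0.431 to 1.15.

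Ltbp4 (ENSMUSG00000040488, chromosome 7 from 28090155 to 28122711, minus strand), a partner of elastic fibre assembly, was 1.01, 0.721 and 0.813 RPKM in Scx-/- and 1.19, 0.983 and 1.70 RPKM in Scx+/+ replicates 1 to 3. Scx-/- replicate 1 (1.01 RPKM) lay above Scx+/+ replicate 2 (0.983 RPKM), and the other values were in order. The mean in Scx-/- was 65.7% of that in Scx+/+, and the log2 difference of -0.53 ± 0.36 was the largest in size of the 9 (SE; limma adjusted p = 0.967), or -0.64 after centring. The 95% interval ran from a fold of 0.392 to 1.22. Ltbp3 and Ltbp4 were below 0 in all 18 alternatives each, from -0.71 to -0.32 and from -0.70 to -0.30, and past the unadjusted threshold in none. Here too, some of the 18 return the main estimate and cannot change its sign. At 61.5% and 61.6% they had the highest GC content of the 9 genes, and once a trend with length and GC was removed their log2 fold changes were -0.39 and -0.38.

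Ltbp2 (ENSMUSG00000002020, chromosome 12 from 86124162 to 86217482, minus strand) encodes a fibrillin-associated relative that does not bind latent TGF-beta. It had the lowest level, with 0.224, 0.714 and 0.382 RPKM in Scx-/- and 0.441, 0.239 and 0.721 RPKM in Scx+/+ replicates 1 to 3. These values rest on 91 to 405 reads. The genotypes covered nearly the same range. Its difference was -0.082 ± 0.57 (log2, SE; limma adjusted p = 0.996), and the 95% interval from a fold of 0.387 to 2.30 leaves large changes in either direction undetectable at this depth and spread. Of its exon length, 9.33% is also exon of D030025P21Rik on the other strand, and the methods name no strand for the counting.

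All 4 binding proteins had a log2 fold change below 0, with a median of -0.34 against 0.10 over all genes, but none was called and Ltbp1 and Ltbp2 changed sign when libraries were left out. Ltbp1 made up 72.3% ± 1.86 of their RPKM in Scx-/- and 67.8% ± 6.79 in Scx+/+ (SD, n = 3 each). Ltbp3 followed with 13.9% ± 0.436 and 17.2% ± 5.65, Ltbp4 with 9.30% ± 2.84 and 11.2% ± 1.72, and Ltbp2 with 4.51% ± 1.83 and 3.82% ± 0.990. No share differed beyond the spread of the libraries (exact permutation tests, two-sided, p = 0.4 to 0.6). In Scx+/+ replicate 2, Ltbp3 held 23.7%, against 13.2% to 14.8% in the other 5 libraries.

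Megakaryocytes and platelets are a known source of TGF-beta and its carriers, and 5 of their 6 markers were measured. Each had a log2 fold change below 0, whereas 63.8% of all genes were above 0, and none was called. Gp9 rested on only 5 to 56 reads, and Gp6 was at the replacement value of 0.0949 RPKM in Scx+/+ replicate 2. The summed level of the markers was 5.46 to 6.77 RPKM in Scx-/-. In Scx+/+ it was 5.86 and 6.69 RPKM in replicates 1 and 2 and 12.7 RPKM in replicate 3. All 4 binding proteins were also highest in Scx+/+ replicate 3, and so were Fn1, Fbn1 and Col1a1, which were picked after their values were seen. For Ltbp2 the margin was small, at 0.721 RPKM against 0.714 RPKM in Scx-/- replicate 2. How many of all genes were highest in this library was not counted. The part of megakaryocytes and platelets in the binding protein values was not tested.

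**Figure D3:**
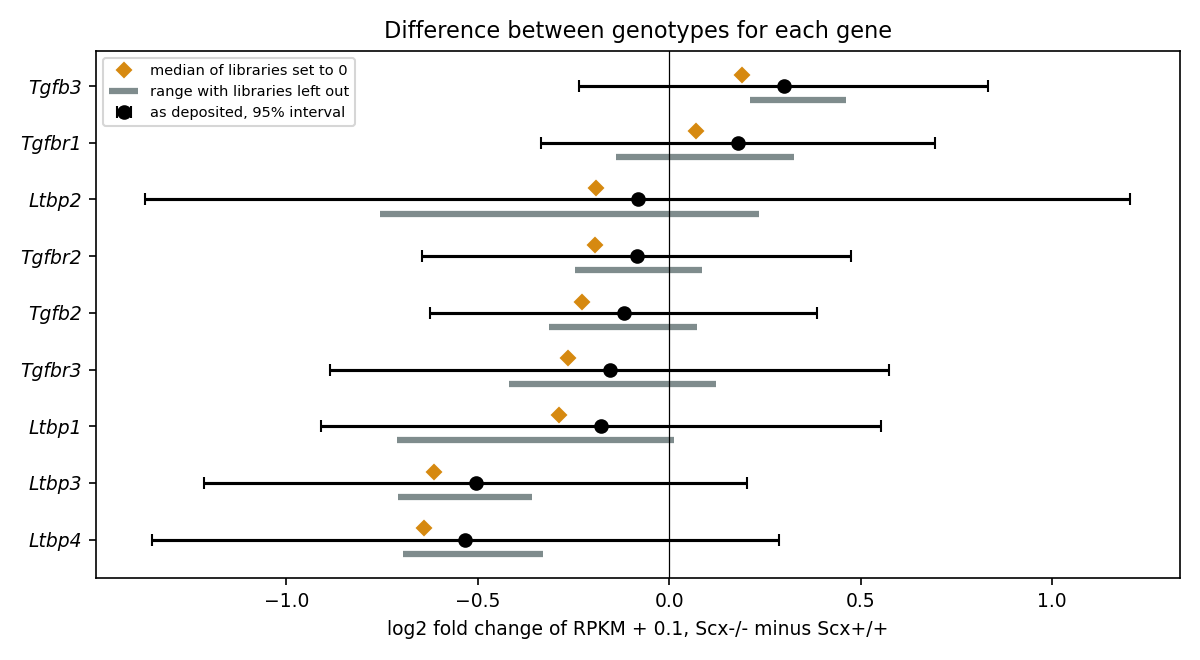
Log2 fold change of each gene, Scx-/- minus Scx+/+, with the 95% interval from limma (black), the value with the median of each library set to 0 (diamonds) and the range of values with libraries left out (grey bars). Every interval includes 0, and the grey bars of Tgfb3, Ltbp3 and Ltbp4 stay on 1 side of it.

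The variation among libraries had a form of its own. For 5 of the 9 genes (Tgfb2, Tgfbr1, Tgfbr2, Tgfbr3 and Ltbp1) the 2 lowest libraries were Scx-/- replicate 3 and Scx+/+ replicate 2, the pair with the highest cardiomyocyte markers. Among the 13827 genes whose mean reached 1 RPKM, 19.5% had this order. The mean of the pair was 57.1% of that of the other 4 libraries for Ltbp1, 59.4% for Tgfbr3, 72.7% for Tgfbr2, 74.0% for Tgfbr1 and 74.8% for Tgfb2. Tgfb3 and Ltbp3 differed least between the pair and the others, at 83.6% and 84.9%. Of the cardiomyocyte markers, 5 of 10 had their 2 highest libraries in this pair and none their 2 lowest. Among the 13827 genes, 1803 had their 2 highest libraries there. The pair was singled out by the summed level of these same 10 markers, so their count follows in part from that choice and is no separate evidence. Scx+/+ replicate 2 differed in other ways too. It had the fewest reads (46429986) and 2252 genes at the lowest value of the table, against 1088 to 1465 in the others. Its RPKM over all genes summed to 2295480, against 820019 to 1240390 in the others. The cardiomyocyte marker Ttn was lowest there, at 92.4 RPKM against 152 to 200 RPKM. The parts of myocardium, depth and RPKM scaling in these levels were not tested. With the pair left out, none of the 9 genes was called, and Tgfb3 was 0.47 and Ltbp4 -0.68 on the log2 scale.

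**Figure D4:**
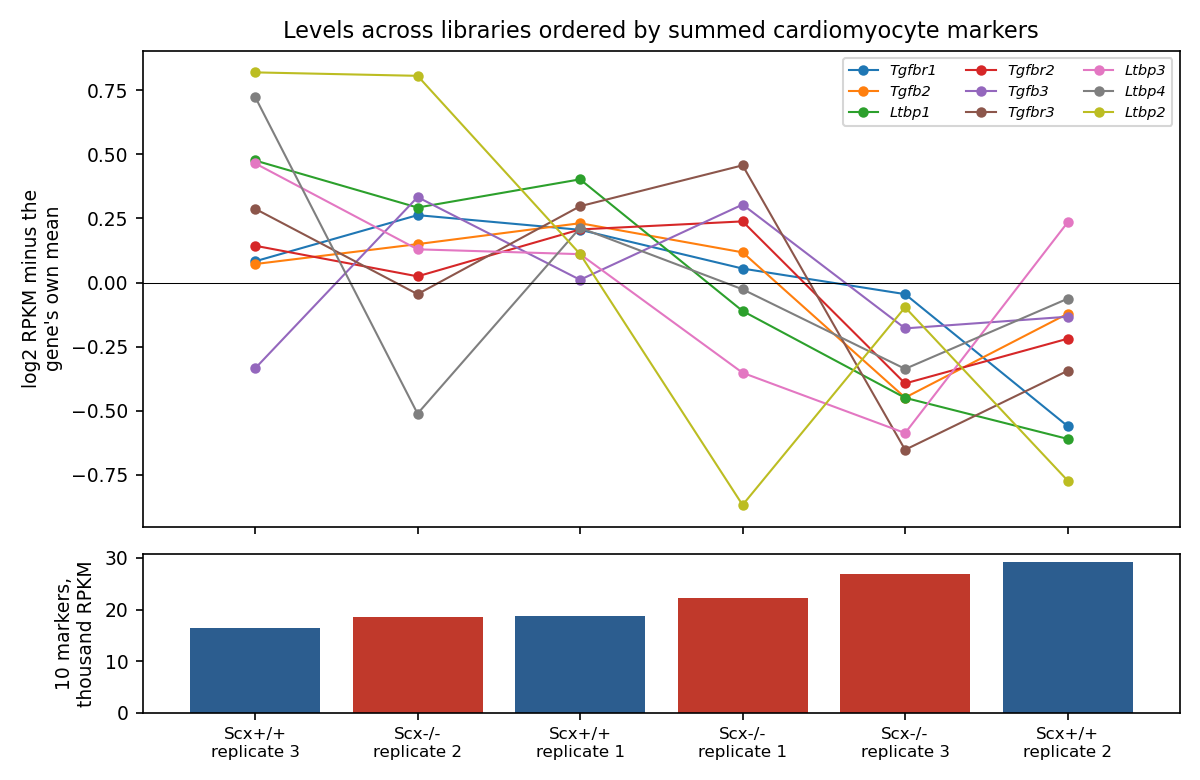
Upper panel, log2 RPKM of each gene minus its own mean over the 6 libraries, with 1 line per gene. Lower panel, summed RPKM of 10 cardiomyocyte markers (Scx-/- red, Scx+/+ blue), which orders the libraries from left to right, and in the pair on the right, Scx-/- replicate 3 and Scx+/+ replicate 2, 8 of the 9 genes lie below their mean and Ltbp3 is above it in Scx+/+ replicate 2.

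Ltbp3 had the smallest p of the 9 genes, and the genes most like it over the 6 libraries were Mtss1l, Nr2f2 and Socs5. Their log2 levels, centred on their own means, differed from those of Ltbp3 by a root mean square of 0.029, 0.075 and 0.095. They were picked as the closest of the 13827 genes whose mean reached 1 RPKM. Their likeness to Ltbp3, and how their genotypes compare, follow from that choice. Nr2f2, which encodes the orphan nuclear receptor COUP-TFII of atrial and venous identity, was 1.17, 1.48 and 1.03 RPKM in Scx-/- and 1.72, 1.68 and 1.98 RPKM in Scx+/+ replicates 1 to 3.

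Genes that store and activate the ligand had a median log2 fold change of -0.12, and none of the 12 measured of 14 was called. Fn1, the fibronectin to which latent complexes attach, was 26.2 ± 6.36 RPKM in Scx-/- and 37.7 ± 12.8 RPKM in Scx+/+ (SD, n = 3 each). Mmp2, a matrix metalloproteinase, was 24.7 ± 8.59 and 18.6 ± 3.28 RPKM (SD, n = 3 each). Both overlapped between genotypes. Of the 12 genes, 9, among them Fbn1 and Fbn2 for the fibrillins, were lowest in the pair of libraries described above, beside 19.5% of the 13827 genes. In the lists that follow it was 1 of 7 co-receptors and modulators, 6 of 16 Smads and regulators and 4 of 19 response genes.

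Of the 7 co-receptors and extracellular modulators, none was called and the median was 0.17. Dcn, the proteoglycan decorin that can bind TGF-beta, was 164 ± 13.1 RPKM in Scx-/- and 124 ± 19.3 RPKM in Scx+/+ (SD, n = 3 each), with no overlap (log2 difference 0.40 ± 0.18, SE, limma adjusted p = 0.967). Bgn, or biglycan, was 12.9 ± 2.69 and 11.05 ± 1.52 RPKM (SD, n = 3 each). Apart from Dcn, Fmod was the other gene of this list without overlap, singled out after its values were seen. It lay the other way, at 0.673 ± 0.211 and 1.16 ± 0.188 RPKM (SD, n = 3 each). That made 2 of the 7 genes without overlap, beside 9.5% of all genes.

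Smads, which carry the signal to the nucleus, and their regulators (16 of 16 measured) had a median of 0.05 and none was called. Their log2 fold changes ran from -0.19 for Fkbp1a, which holds the type I receptor inactive, to 0.23 for Tgif1, a corepressor. Fkbp1a was the 1 gene of the 16 without overlap, beside 9.5% of all genes. It was 7.67 to 8.05 RPKM in Scx-/- and 8.54 to 9.75 RPKM in Scx+/+. Ppm1a, a Smad phosphatase, was 19.3 ± 1.55 and 16.7 ± 1.96 RPKM, and Smurf2, a ubiquitin ligase for Smads and receptors, 16.0 ± 0.470 and 14.3 ± 2.39 RPKM in Scx-/- and Scx+/+ (SD, n = 3 each). Smad2 and Smad3, the substrates of Tgfbr1, were 14.6 ± 1.76 and 12.6 ± 1.22 RPKM and 4.07 ± 1.12 and 4.11 ± 1.65 RPKM in the same order (SD, n = 3 each).

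Of the response genes, whose transcription TGF-beta is known to raise in many cells, 19 of 20 were measured and 1 was called, beside 3.89% of all genes. The called gene, Snai2, encodes the transcription factor Slug of the endothelial-to-mesenchymal transition. It was 1.78, 1.64 and 0.865 RPKM in Scx-/- and 2.99, 2.004 and 2.46 RPKM in Scx+/+ replicates 1 to 3. The genotypes did not overlap, and the log2 difference was -0.80 ± 0.35 (SE; limma adjusted p = 0.967). In all, 4 of the 19 genes did not overlap, beside 9.5% of all genes, and the others, which were not called, had log2 differences of -0.89 (Junb), -0.50 (Col1a1) and 0.52 (Tagln). The call was lost in 9 of its 18 alternatives, and over the 18 the log2 fold change ranged from -1.06 to -0.50. Of the 19 log2 fold changes, 9 were above 0, and their median was -0.0061 (-0.12 after centring), beside 63.8% and 0.10 over all genes. Ctgf, encoding connective tissue growth factor, was 17.1 ± 4.81 and 17.1 ± 4.04 RPKM in Scx-/- and Scx+/+ (SD, n = 3 each).

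**Figure D5:**
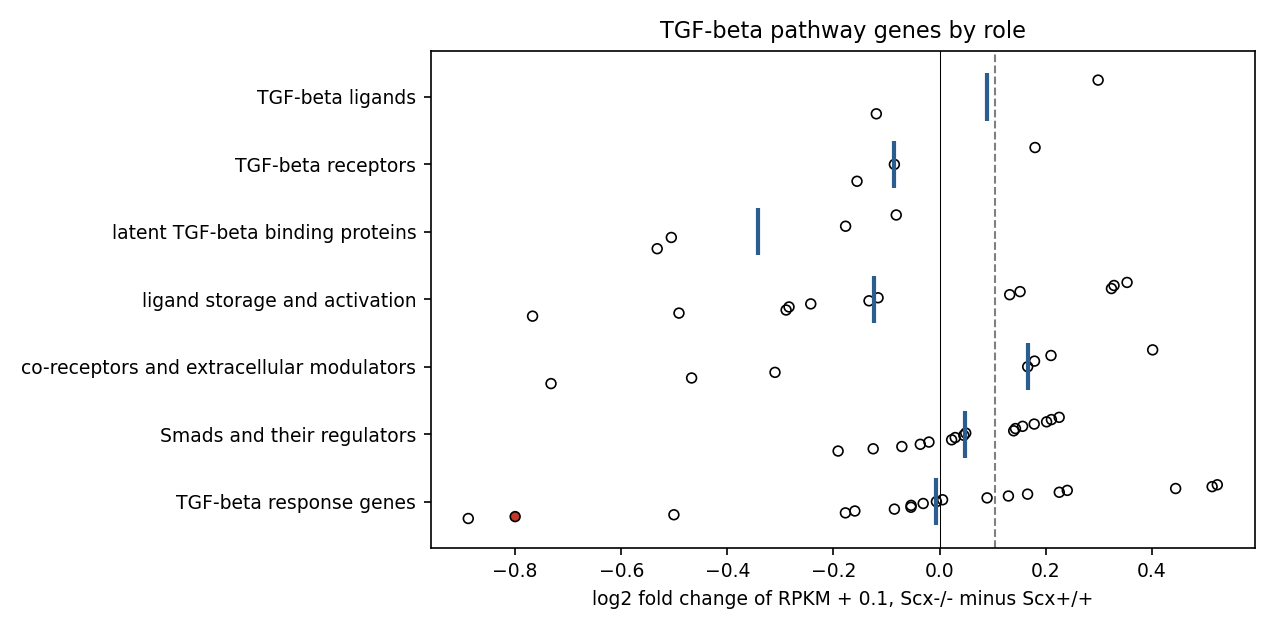
Log2 fold change, Scx-/- minus Scx+/+, of every measured gene of 7 lists, with filled points for genes called by limma before adjustment, blue bars for list medians and a dashed line for the median of all genes (0.10). Snai2 among the response genes is the only filled point, and the binding proteins have the lowest median (-0.34).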

How the data were processed

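Total RNA of 6 libraries was sequenced by the authors on an Illumina instrument. Per their methods and the labels, reads were aligned to mm9 with TopHat 1.4.1 and counted within Ensembl exons with easyRNASeq, and the deposited values are RPKM, as calculated by the authors. Per the methods a gene needed about 50 reads in some library, and low values were replaced, and the replacement, 0.0949 RPKM, touched none of the 9 genes described. Rarely expressed genes are therefore missing or flattened.

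Identifiers were matched to GENCODE M1 (NCBIM37, 18695 of 18810), which gave symbols, positions and exon lengths. Reads were recovered from RPKM and exon length, whole within 0.1 read for 98.5% to 98.6% of values under 1000 reads, and served only to describe depth. Reads are not independent molecules, so such figures cover counting error only.

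All 18810 genes were tested on log2(RPKM + 0.1) with limma 3.58.1 (R 4.3.3), using an intensity trend without covariates, and p-values were adjusted by the Benjamini-Hochberg method. A call means an unadjusted p under 0.05, the rule of the study. Nothing states that libraries came from separate litters, so p measures the spread between these libraries. Shares within a role were compared by exact permutation over libraries. For the ligands the share was planned over 3 genes and computed over Tgfb2 and Tgfb3. Members and lists were chosen with earlier results of these data known. Named are all members, Scx, the called genes of each pathway list or else its 2 most abundant, the 3 genes most like the member with the smallest p, and the marker and pathway genes named beyond these were chosen after their values were seen. The remaining steps used scipy 1.17.1, pandas 2.3.3 and numpy 2.4.6 under Python 3.11.15.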

Additional observations from a re-analysis of the deposited data

How the results depend on the processing

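The alternatives were pseudocounts of 0.01 and 1, a minimum mean of 1 RPKM, no intensity trend, one-way ANOVA, library medians set to 0, quantile normalization, removal of a trend with length and GC, the replicate block, and libraries left out. Leaving out Scx-/- replicate 3 together with Scx+/+ replicate 2, and the trend removal for shares, were chosen after seeing the data. Of all genes, 731 were called, 539 to 1704 with libraries left out (1549 without Scx+/+ replicate 2) and 1587 without the pair that stood apart. Of the 9 members, 0 were called, and 0 to 1 with libraries left out. The other 54 pathway genes had 1 call (1.85%, beside 3.89% of all genes). Brackets below give the share of all genes called in the same setting. There were 0 calls of 49 with a minimum mean of 1 RPKM (4.11%), 3 without the trend (3.43%) and 4 by one-way ANOVA (4.60%). There were 2 with medians set to 0 (3.43%), 3 after quantile normalization (3.75%), 3 without the pair (8.44%) and 0 with the replicate block (3.05%). With libraries left out there were 0 to 6. Among these were 4 without Scx-/- replicate 1 (3.07%), 3 without Scx-/- replicate 3 (4.36%), 6 without Scx+/+ replicate 2 (8.23%) and 0 without Scx+/+ replicate 3 (2.87%). Of 54 genes, 3, 4 and 6 calls are 5.56%, 7.41% and 11.1%. The causes were not tested. Log2 fold changes that reversed with libraries left out ranged from -0.31 to 0.072 for Tgfb2, -0.14 to 0.33 for Tgfbr1, -0.25 to 0.085 for Tgfbr2, -0.42 to 0.12 for Tgfbr3, -0.71 to 0.013 for Ltbp1 and -0.75 to 0.24 for Ltbp2. With the length and GC trend removed, with or without the block, Tgfbr2 was 0.0053 and Ltbp2 0.096. The difference in the share of Ltbp2 ranged from -0.418 to 1.71 points and in that of Ltbp4 from -2.83 to 0.488 points.

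With the replicate number as a block, 573 genes, 0 members and 0 other pathway genes were called. Deviations of libraries with the same number correlated at 0.092, -0.22 and -0.19, and not every library correlated best with its own number. Deviations from a genotype mean of 3 libraries are tied to one another, so these values cannot show whether the numbers pair the libraries. Ltbp2 has no value with a minimum mean of 1 RPKM.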
